A study of Arabidopsis thaliana with 12 samples.

Results

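The epcr1/2 double mutant of Arabidopsis thaliana was compared with wild type in small RNA libraries, region by region along the 5 chromosomes. The genotype of the mutant is epcr1-/-epcr2-/-, and the labels do not describe the alleles. The members were the 500 bp regions listed in the tables of both repeats, 4213 of the 6125 regions listed in either table, and 4 of the 12 libraries of the study carried the comparison. The study examined the role of PEAT complexes in silencing, and also sequenced arid2-/-arid3-/-arid4-/-, nrpd1-/-, nrpe1-/- and hda6 mutants, of which 1 hda6 library carries the genotype label had-/-. All libraries were made from total RNA of whole 10-day-old seedlings grown on MS plates at 22 °C under days of 16 h light and 8 h dark, with no further treatment. There were 2 repeats of each genotype. Whole seedlings hold many cell types, so a change in the number of cells with a small RNA and a change in its amount per cell cannot be told apart. EPCR1 and EPCR2 transcripts were not measured, and no region lay in or within 1 kb of either gene, so the libraries hold no check of the mutated genes.

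EPCR1 and EPCR2 are proteins related to Enhancer of Polycomb and are subunits of the plant PEAT complexes, together with PWWP-domain, ARID-domain and telomere repeat binding proteins. In plants, most small interfering RNAs of heterochromatin arise from transcripts of RNA polymerase IV that are copied into double-stranded RNA and cut by a Dicer-like enzyme, and they guide DNA methylation with the help of RNA polymerase V. Such small RNAs come from transposons and repeats, which are densest around the centromeres, and from shorter elements scattered along the gene-rich arms. The tandem arrays of rRNA genes are a further heterochromatic source, and HDA6 is a histone deacetylase known for silencing them.

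Each value is the whole-number score that the authors deposited for a library in a 500 bp region. In wild type the scores summed to 1260502 in repeat 1 and 1016199 in repeat 2, and in epcr1/2 to 1684787 and 1920441. Read depth behind a score is not known, and regions low in wild type are not analysed here: the lowest wild-type score was 95 in repeat 1 and 98 in repeat 2, against 23 and 0 in epcr1/2. With such a floor in wild type and not in epcr1/2, rises from below it are missing. Falls near the floor are favoured, so the share of lowered regions may be too high. Regions within 3 Mb of the position usually given for a centromere were called pericentromeric (2986 regions) and the others arm regions (1227). Changes are fitted log2 changes of score + 89, where 89 is the 25th percentile of the scores above 0. The added 89 makes the change of low regions smaller than the ratio of their scores. A region was called raised or lowered in epcr1/2 when the Benjamini-Hochberg adjusted p of limma was under 0.05. The SE of each region came from the trend of the variance with the score over all regions, not from the spread of its own repeats.

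The sequences of 6 stretches are shown because they mark the extremes of the comparison. Each is 300 bases of the TAIR10 plus strand, copied from the RefSeq assembly of the same chromosome lengths, with CG dinucleotides in capitals. The first lies in the most raised region, beside annotated rRNA genes on chromosome 3. The second is the most raised member of the centromeric repeat family, and the third is the middle of the longest run of raised regions. The fourth is from the most lowered region that holds no untranslated exon, and the fifth from the lowered region with the highest wild-type score within 0.5 Mb of a centromere. The last crosses the border of a raised and a lowered region.
Most raised, chr3:14203601-14203900: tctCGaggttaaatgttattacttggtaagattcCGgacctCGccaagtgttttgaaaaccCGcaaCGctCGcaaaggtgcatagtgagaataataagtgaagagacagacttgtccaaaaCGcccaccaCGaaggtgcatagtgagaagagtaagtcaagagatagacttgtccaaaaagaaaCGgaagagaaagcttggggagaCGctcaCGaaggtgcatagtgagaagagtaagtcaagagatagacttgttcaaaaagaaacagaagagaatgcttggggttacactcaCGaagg
Centromeric repeat, chr5:11729601-11729900: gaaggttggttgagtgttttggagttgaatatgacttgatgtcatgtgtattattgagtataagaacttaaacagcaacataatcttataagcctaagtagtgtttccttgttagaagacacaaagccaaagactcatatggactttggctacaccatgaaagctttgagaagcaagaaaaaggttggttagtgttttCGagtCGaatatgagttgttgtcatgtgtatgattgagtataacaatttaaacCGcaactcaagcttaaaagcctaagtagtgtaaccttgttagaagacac
Longest raised run, chr1:14735101-14735400: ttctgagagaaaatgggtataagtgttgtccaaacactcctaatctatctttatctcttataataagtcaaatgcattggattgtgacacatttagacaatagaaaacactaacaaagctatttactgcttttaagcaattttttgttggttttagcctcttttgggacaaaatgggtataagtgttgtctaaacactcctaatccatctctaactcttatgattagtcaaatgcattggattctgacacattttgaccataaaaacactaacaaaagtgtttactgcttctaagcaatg
Most lowered, chr1:9755101-9755400: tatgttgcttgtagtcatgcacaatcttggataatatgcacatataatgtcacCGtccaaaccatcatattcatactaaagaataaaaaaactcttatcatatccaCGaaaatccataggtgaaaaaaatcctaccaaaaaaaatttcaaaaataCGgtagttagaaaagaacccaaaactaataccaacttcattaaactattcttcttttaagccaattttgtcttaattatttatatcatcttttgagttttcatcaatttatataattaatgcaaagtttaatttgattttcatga
Lowered near a centromere, chr5:12091601-12091900: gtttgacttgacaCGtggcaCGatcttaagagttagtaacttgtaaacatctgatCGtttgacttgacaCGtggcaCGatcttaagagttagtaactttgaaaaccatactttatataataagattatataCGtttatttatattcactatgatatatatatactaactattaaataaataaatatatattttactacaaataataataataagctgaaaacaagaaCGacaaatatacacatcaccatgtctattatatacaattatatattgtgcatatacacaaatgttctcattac
Raised and lowered border, chr1:13166851-13167150: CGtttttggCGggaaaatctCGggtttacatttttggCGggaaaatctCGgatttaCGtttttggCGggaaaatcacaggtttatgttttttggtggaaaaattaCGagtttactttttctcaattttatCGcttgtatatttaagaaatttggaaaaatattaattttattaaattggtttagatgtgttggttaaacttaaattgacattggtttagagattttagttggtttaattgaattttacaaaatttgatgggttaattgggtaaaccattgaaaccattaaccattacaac
The first stretch had 44.0% G+C and 12 CG dinucleotides, the second 35.7% and 3, and the third 32.3% and 0. The most lowered stretch had 26.3% G+C and 3 CG dinucleotides, and the lowered stretch near the centromere 26.0% and 7.

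Small RNA scores in epcr1/2 were higher than in wild type around the centromeres and lower on the arms. Of the 4213 regions, 2198 were raised (52.2%) and 625 were lowered (14.8%), so 67.0% were called. The median change over all regions was 0.48. It was 0.25 in repeat 1 and 0.68 in repeat 2. The raised regions belonged to 1131 sequence families and the lowered regions to 599, out of 2766 families, where a family joins regions that share at least 50% of their 24-base words. Counted by family, the raised side was still the larger, by a smaller margin. Both epcr1/2 libraries were above both wild-type libraries in 2306 regions and below them in 978, and the groups overlapped in 929. The number of lowered regions was the less stable of the counts: it was 414 without replicate 1 of wild type and 378 without replicate 1 of epcr1/2.

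Around the centromeres, 2158 of 2986 regions were raised (72.3%) and 210 were lowered (7.03%), with a median change of 0.86. The median was 0.75 in repeat 1 and 0.95 in repeat 2. On the arms, 40 of 1227 regions were raised (3.26%) and 415 were lowered (33.8%), with a median of -0.25. The arm median was -0.42 in repeat 1 and -0.08 in repeat 2. The direction of both medians was the same in each repeat. Without replicate 1 of wild type or of epcr1/2 the lowered regions numbered 139 and 130 around the centromeres and 275 and 248 on the arms, and without replicate 2 of either genotype 22 arm regions were raised. With only wild type and epcr1/2 in the fit, 25 arm regions were raised and 266 lowered, and 128 pericentromeric regions were lowered; the fit over 12 libraries includes nrpd1 libraries with median scores of 2 and 0.

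The changes gathered in 2 groups of values with fewer regions between them. Changes from 0.75 to 1.25 made up 37.3% of all regions (1572), and changes from -0.5 to 0 made up 31.9% (1343). The window of equal width between them, from 0 to 0.5, held 10.7% (451), and a further 290 regions lay from 0.5 to 0.75. Of the pericentromeric regions, 52.3% lay between 0.75 and 1.25 and 16.3% between -0.5 and 0. Of the arm regions, 69.8% lay between -0.5 and 0 and 0.733% between 0.75 and 1.25.

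The sums of scores followed the same pattern as the single regions. Pericentromeric regions held 67.2% and 69.2% of the summed score in the wild-type libraries, and 84.8% and 84.1% in the epcr1/2 libraries. Both epcr1/2 libraries were above both wild-type libraries. The log2 ratio of the pericentromeric to the arm sum was 1.10 ± 0.09 (SD, n = 2) in wild type and 2.44 ± 0.06 (SD, n = 2) in epcr1/2. The difference of 1.34 (1.44 within repeat 1 and 1.24 within repeat 2) was larger than the SD of either genotype. With 2 libraries against 2, however, the two-sided exact permutation test gave p = 0.333, the smallest value the design allows. A ratio within a library does not depend on how libraries were scaled. The pericentromeric sum itself was 1.69 times the wild-type sum in repeat 1 and 2.30 times in repeat 2, and the arm sum was 0.62 times and 0.974 times.

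How far a region was above or below wild type depended on the scale put on the libraries. When libraries were scaled to a common median, the median change over all regions moved from 0.48 to -0.05, 1688 regions were raised (40.1%) and 1960 lowered (46.5%), 86.6% in all, so that 46.3% of calls were raised in place of 77.9%. After quantile normalization the median was 0.14, 1689 regions were raised (40.1%), 1428 were lowered (33.9%), 74.0% in all, and 54.2% of calls were raised. The pericentromeric median stayed above 0 (0.27 and 0.36) and the arm median below 0 (-0.74 and -0.63) under both. Of the 2198 raised regions, 1688 were raised and 1 was lowered after median scaling, and all 625 lowered regions were lowered. On the deposited scale raised calls were therefore the more numerous, and after median scaling lowered calls were.

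**Figure D1:**
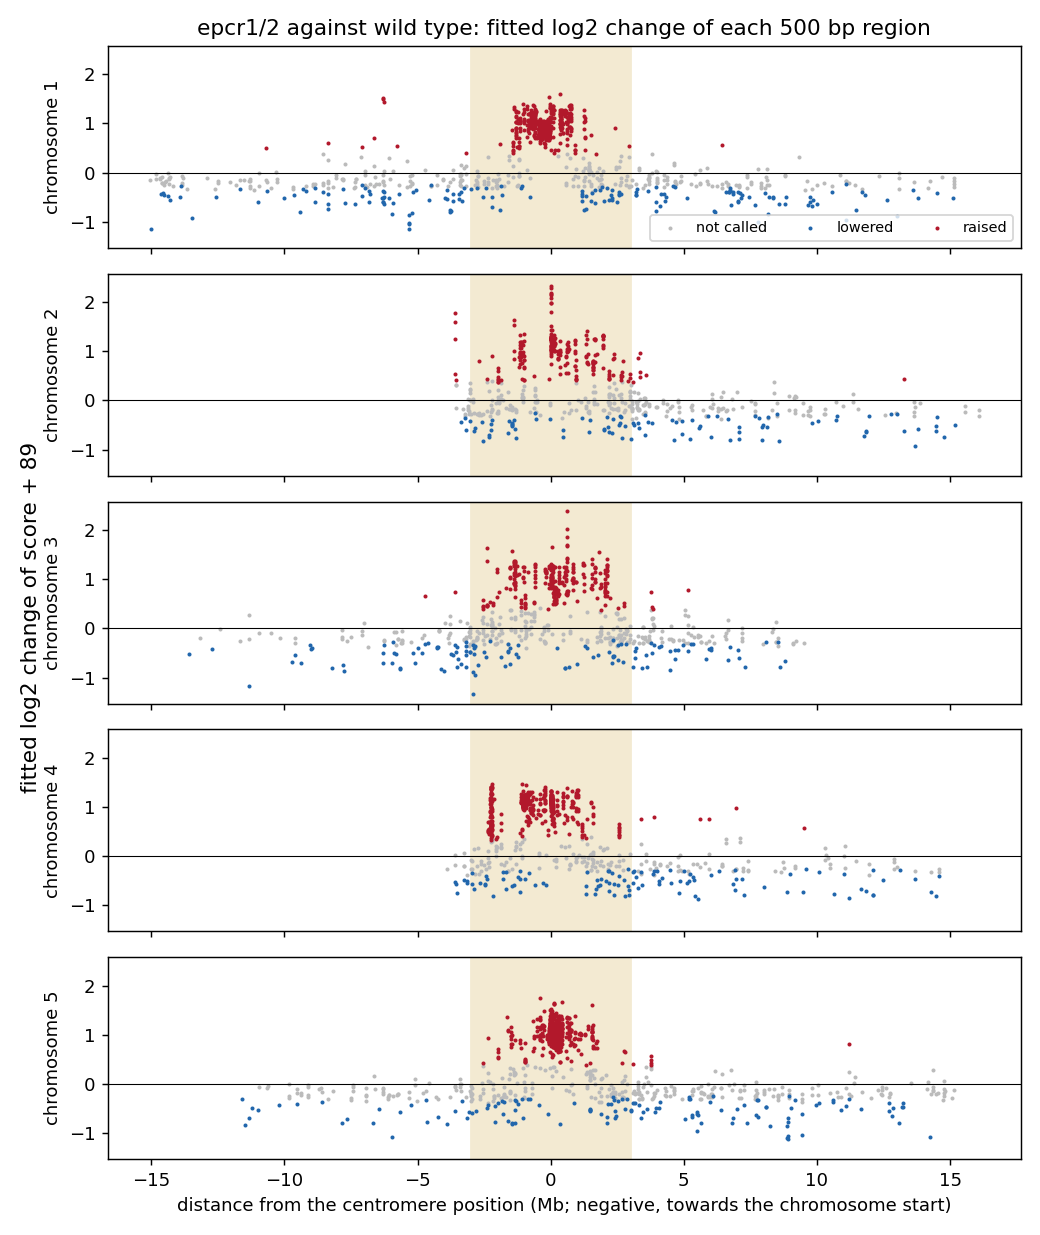
Fitted log2 change of score + 89 in epcr1/2 against wild type (vertical axis) for each of the 4213 regions by distance from the centromere position in Mb (horizontal axis, negative towards the chromosome start), with 1 panel per chromosome. Shading marks 3 Mb on each side; red points were raised, blue points lowered and grey points not called, and the red points gather in the shaded part of each panel.

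The share of raised regions fell with distance from the centromere. Within 0.5 Mb, 1240 of 1290 regions were raised, with a median of 0.96, and 9 were lowered. Between 0.5 and 1 Mb 368 of 458 were raised, with a median of 0.97. Between 1 and 2 Mb 372 of 695 were raised and 84 lowered, with a median of 0.50. In this class raised and lowered regions lay among each other. Between 2 and 3 Mb 178 of 543 were raised and 104 lowered, with a median of -0.05. From 3 to 5 Mb 24 of 429 were raised, from 5 to 10 Mb 13 of 555, and beyond 10 Mb 3 of 243. The medians of these 3 outer classes were -0.21, -0.26 and -0.25, so beyond 3 Mb there was little further change with distance. After median scaling the medians went from 0.34 within 0.5 Mb and 0.42 at 0.5 to 1 Mb to -0.75 beyond 10 Mb, and the 1 to 2 Mb class changed sign to -0.04.

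**Figure D2:**
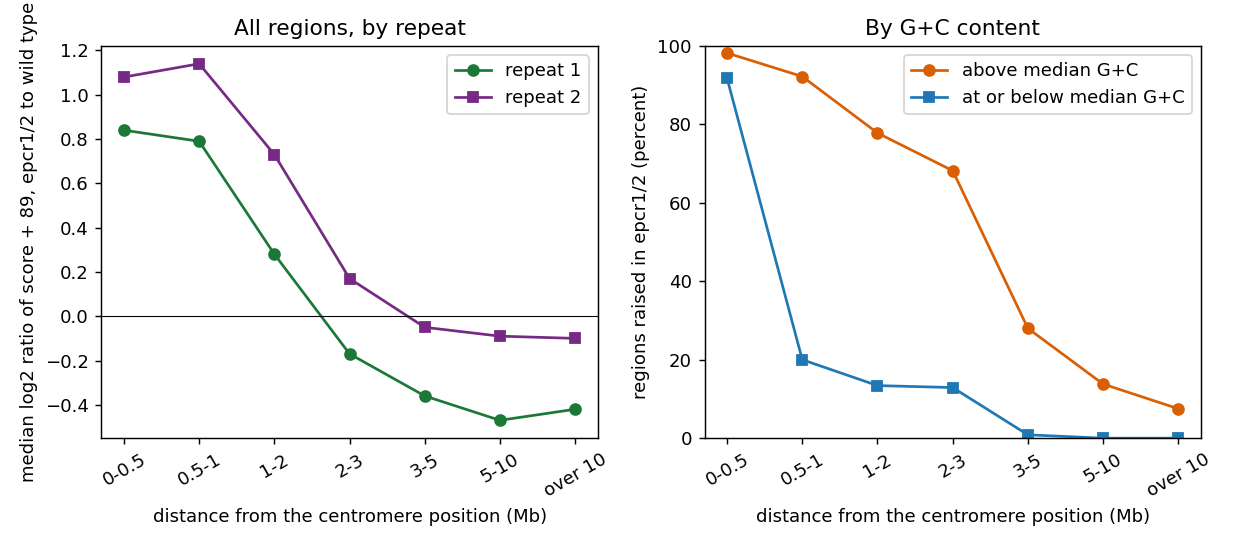
Left, median log2 ratio of score + 89 between epcr1/2 and wild type for all regions in 7 classes of distance from the centromere (Mb), with 1 line per repeat. Right, percent of regions raised in the same classes for regions above and at or below the median G+C content of 34.4%; the median was highest within 1 Mb and below 0 beyond 3 Mb in both repeats, and the 2 curves on the right lie farthest apart between 0.5 and 3 Mb.

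All 5 chromosomes showed a higher median around the centromere than on the arms. The pericentromeric median was 0.88 on chromosome 1, 0.50 on chromosome 2, 0.61 on chromosome 3, 0.95 on chromosome 4 and 0.91 on chromosome 5. The arm median lay between -0.29 (chromosome 4) and -0.19 (chromosome 2). Raised regions made up 629 of 767 pericentromeric regions on chromosome 1, 211 of 377 on chromosome 2, 280 of 476 on chromosome 3, 473 of 634 on chromosome 4 and 565 of 732 on chromosome 5. Chromosomes 2 and 3 thus had the lowest shares. After median scaling the pericentromeric median stayed above 0 on chromosomes 1, 3, 4 and 5 (0.05 to 0.35) and was -0.05 on chromosome 2.

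The sides of a centromere were not alike. On chromosome 1, all 384 regions within 0.5 Mb to the left of the centromere position were raised, and 45 of 67 at 1 to 2 Mb on that side, against 11 of 59 at 1 to 2 Mb on the right. On chromosome 4, 98 of 134 regions at 2 to 3 Mb to the left were raised, with a median of 0.59, against 8 of 36 at the same distance on the right, with a median of -0.24. On the other chromosomes at most 33.3% of regions were raised at that distance on either side. The raised regions of chromosome 4 left lay between chr4:1597001 and chr4:1930500, on the short arm that is known to carry a heterochromatic knob in the Columbia accession. This stretch was singled out after its values were seen, and the differences between sides were not tested.

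Within this stretch of chromosome 4, a family of 40 regions between 1.7 and 1.738 Mb of chromosome 4 had 38 raised members, with changes from 0.30 to 1.36. Its summed score was 11353 and 7429 in the wild-type libraries and 16164 and 18932 in the epcr1/2 libraries. The most raised region of the whole stretch, chr4:1735501-1736000, scored 397 and 249 in wild type and 952 and 1101 in epcr1/2, and rose by 1.46 ± 0.20 (SE, adjusted p = 1.1e-11). Both epcr1/2 libraries were above both wild-type libraries in it. After median scaling, 8 of the 40 regions of the family were raised and 2 lowered, with a median of 0.01.

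The longest raised runs of adjoining regions lay at the centromeres. On chromosome 1 a run of 46 windows, chr1:14723501-14746500, was raised throughout, with changes from 0.68 to 1.03. Its mean score was 281.9 and 256.1 in wild type and 567.3 and 593.8 in epcr1/2. On chromosome 4 a run of 45 windows, chr4:3965501-3988000, was raised throughout, with mean scores of 614.8 and 692.6 in wild type and 1368 and 1689 in epcr1/2. The longest raised runs had 30 windows on chromosome 2 (chr2:3613501-3628500), 28 on chromosome 5 (chr5:11701501-11715500) and 9 on chromosome 3 (chr3:13588501-13593000). The median changes of these 5 runs were 0.90, 1.12, 1.25, 1.16 and 1.20, and after median scaling they lay between 0.26 and 0.51. Of the 500 regions in runs of 10 or more windows, 498 were raised and 0 lowered, and all 500 were pericentromeric. Raised regions made up 72.3% of all pericentromeric regions and 96.1% of those within 0.5 Mb of a centromere. In the 5 longest raised runs the words had a median of 9 to 74 copies, so the same reads can count in several windows.

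Lowered regions mostly stood alone. The longest lowered run had 4 windows, chr1:9754501-9756500, with mean scores of 374.5 and 218.8 in wild type and 81.5 and 113.0 in epcr1/2. The longest lowered run of the other chromosomes had 2 or 3 windows. Of the 862 single pericentromeric windows 405 were raised and 169 lowered, and of the 725 single arm windows 21 were raised and 332 lowered. Among 1818 pairs of adjoining windows, both were raised in 1283, both lowered in 27, and 1 was raised and 1 lowered in 9.

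Of the 9 raised and lowered borders, the pericentromeric one outside genes with the largest changes is described here. The left window chr1:13166501-13167000 scored 110 and 157 in wild type and 214 and 273 in epcr1/2, a rise of 0.58 ± 0.15 (SE, adjusted p = 0.00017). The right window chr1:13167001-13167500 scored 405 and 333 in wild type and 172 and 192 in epcr1/2, a fall with a change of -0.75 ± 0.16 (SE, adjusted p = 9.6e-06). Wild type was below epcr1/2 in the left window and above it in the right window in both repeats. In the border stretch shown above, the first 150 bases had 34.7% G+C and 9 CG dinucleotides, and the last 150 bases had 24.7% and 0.

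On the deposited scale repeat families were mostly raised as a whole. Of 30 families with at least 10 regions, 20 had every region raised (753 regions), 0 had every region lowered and 4 had no region called. Together the 30 families held 967 regions, of which 815 were raised and 2 lowered. Raised regions made up 52.2% of all regions, 72.3% of pericentromeric regions and 96.1% of regions within 0.5 Mb of a centromere. Of the 30 families 20 had no arm region, so family and position cannot be told apart in these counts. After median scaling 645 were raised and 150 lowered, with every region raised in 6 families and every region lowered in 5, and after quantile normalization 578 were raised and 125 lowered. Regions of a family share sequence, so reads from one copy can count in another, and they are not independent.

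The most abundant family had members on all 5 chromosomes, all within 0.11 Mb of a centromere position. All 75 of its regions were raised, with changes from 0.94 to 1.43. Its mean score was 1282 and 1178 in wild type and 2739 and 3124 in epcr1/2, so both epcr1/2 libraries were above both wild-type libraries. In 55 of the 75 regions the sequence repeated most closely at a distance of 178 bases, which is the unit length of the centromere satellite of Arabidopsis. The stretch at chr5:11729601-11729900 shown above belongs to it. Its window scored 592 and 509 in wild type and 1554 and 1703 in epcr1/2, a rise of 1.43 ± 0.24 (SE, adjusted p = 2e-08).

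In 3 further families 178 bases was also the most common period, in 39 of 44, 49 of 71 and 31 of 100 regions, and every region was raised. The family of 44 regions, at the centromere of chromosome 4, had mean scores of 625.1 and 697.0 in wild type and 1364 and 1710 in epcr1/2. The family of 71 regions at 2.921 to 2.965 Mb of chromosome 4 had 186.3 and 163.9 against 447.6 and 526.2. The family of 100 regions at 11.82 to 11.96 Mb of chromosome 5 had 193.2 and 214.1 against 462.9 and 456.4. The medians of these 3 families were 1.11, 1.08 and 0.84, and they stayed above 0 after median scaling (0.40, 0.51 and 0.26).

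Chromosome 1 carried families of another tandem repeat, with 159 bases as the most common period, between 14.66 and 15.04 Mb. The period was found in 36 of 53, 17 of 32, 17 of 26 and 15 of 15 regions. All regions of these families of 53, 32, 26 and 15 regions were raised, with median changes of 0.90, 0.94, 0.82 and 0.96. After median scaling these medians were 0.26, 0.30, 0.17 and 0.32. In the family of 53 regions the mean score was 289.9 and 263.2 in wild type and 584.0 and 612.2 in epcr1/2. The change of the arid2/3/4 mutant against the same wild-type libraries had a median of 0.10, 0.17, -0.21 and 0.12 in these families, while it was 1.79 in the satellite family with members on all chromosomes. Both mutants were set against the same wild-type libraries, and the difference between them was not tested.

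Dispersed repeats with only pericentromeric members were raised as well, but most families that also had arm members had few regions raised. A family of 107 pericentromeric regions on chromosomes 1, 3, 4 and 5 had mean scores of 270.0 and 183.6 in wild type and 556.7 and 589.5 in epcr1/2, and a family of 61 on all chromosomes had 282.9 and 202.0 against 660.1 and 742.8. Every region of both was raised, also after median scaling. Among families that also had arm members, 1 of 18 regions, 10 of them on the arms, had 13 raised, with changes from 0.06 to 0.97, whereas 1 of 42 regions, 30 of them on the arms, had 0 raised and 2 lowered, with changes from -0.40 to -0.06. The median G+C content was 39.4% in the first of these and 22.8% in the second. G+C content did not separate all such families: a family of 17 regions with 39.0% had 1 raised. The 2 families of 10 regions with an arm member, with 39.6% and 48.0%, had 8 and 10 raised. The remaining families with arm members, of 14, 16, 19 and 21 regions, had 0 raised, and another of 17 regions had 2. In these, 0 regions were lowered, and the median G+C content lay between 26.8% and 32.6%. After median scaling the family of 18 had 5 regions raised and 5 lowered, with a median of 0.14. In the family of 42 all 42 regions were then lowered, with a median of -0.78.

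**Figure D3:**
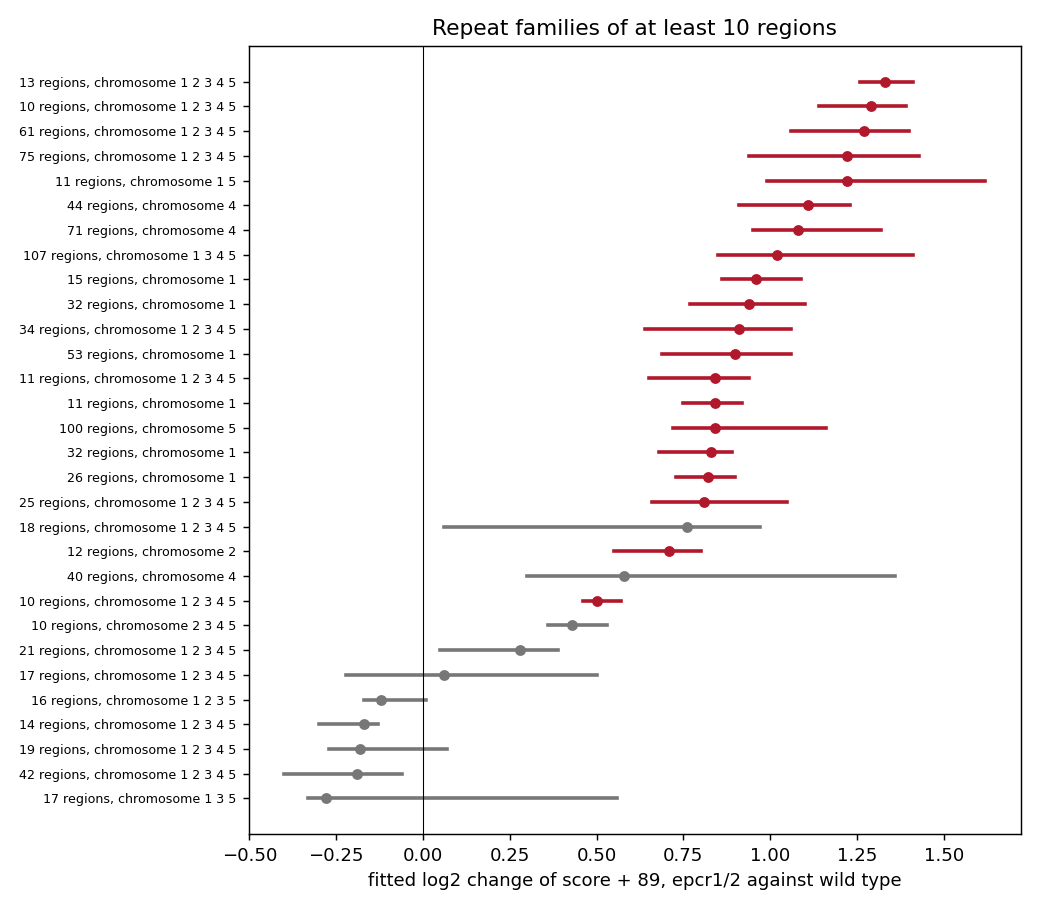
Fitted log2 change of score + 89 for the 30 repeat families of at least 10 regions, named by their number of regions and their chromosomes; points are medians and lines run from the lowest to the highest region. The 20 families with every region raised are in red and lie at 0.46 or higher, and the others are grey.

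The region with the largest rise lay beside rRNA genes. Region chr3:14203501-14204000 scored 176 and 163 in wild type and 1230 and 1300 in epcr1/2, a rise of 2.39 ± 0.23 (SE, adjusted p = 6.3e-23). It overlaps the non-coding transcript AT3G06365 and starts 3585 bp after the annotated rRNA gene AT3G41979, on chromosome 3. The scores were 6.99 times the wild-type value in repeat 1 and 7.98 times in repeat 2, so the genotypes did not overlap.

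That result led to a look at all regions within 10 kb of the annotated nuclear rRNA genes, a list chosen after these values were seen. There were 16 such regions, 4 at the start of chromosome 2 and 12 on chromosome 3, and all 16 were raised, with changes from 0.54 to 2.39 and a median of 1.42. Over all regions 52.2% were raised. At 0.5 to 1 Mb right of the chromosome 3 centromere, where the 12 lie, 43 of 50 regions were raised, these 12 included. At 3 to 5 Mb left of the chromosome 2 centromere, where the 4 lie, 5 of 27 were, these 4 included. The scores of the 16 regions ran from 171 to 568 (median 389.5) and from 145 to 497 (median 253.5) in the wild-type libraries, and from 294 to 1529 (median 1128) and from 316 to 1544 (median 1128.5) in the epcr1/2 libraries. The 4 regions on chromosome 2 count as arm regions, and region chr2:2001-2500, in AT2G01008, was the most raised arm region. It scored 461 and 242 in wild type and 1363 and 1398 in epcr1/2, a rise of 1.78 ± 0.24 (SE, adjusted p = 8.6e-12). After median scaling 12 of the 16 were raised, with a median of 0.75 and the lowest at -0.02. No region covered an rRNA gene itself. The hda6 mutant, set against the same wild-type libraries, had a median change of 2.46 in the 16 regions, and the difference from epcr1/2 was not tested.

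The strongest rises elsewhere were also at centromeres and in pseudogenes. Region chr2:3612501-3613000, in intergenic sequence 0.00482 Mb from the centromere position, scored 151 and 124 in wild type and 965 and 1141 in epcr1/2, a rise of 2.33 ± 0.19 (SE, adjusted p = 9.1e-33). Region chr2:3630001-3630500 rose by 2.16. Of the 12 regions that also passed a test for a change of more than 2-fold, 8 lay within 0.5 Mb of the centromere of chromosome 2. On chromosome 5, region chr5:11324001-11324500, in the pseudogene AT5G29975, scored 214 and 115 in wild type and 693 and 813 in epcr1/2, a rise of 1.76 ± 0.20 (SE, adjusted p = 3.6e-16). The pseudogene regions chr3:13651001-13651500 in AT3G33067, chr5:12142501-12143000 in AT5G32511 and chr1:15417501-15418000 in AT1G40310 rose by 1.66, 1.67 and 1.60. In each of these regions both epcr1/2 libraries were above both wild-type libraries.

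Some regions found mostly once in the genome were also raised, but a smaller share of them than of multicopy regions. Region chr4:2865501-2866000, in the pseudogene AT4G05584, has 97.9% of its 24-base words once in the genome. It scored 344 and 207 in wild type and 889 and 913 in epcr1/2, a rise of 1.47 ± 0.19 (SE, adjusted p = 1.7e-12). Among mostly single-copy regions (at least 80% of words found once), 67 of 142 around the centromeres were raised and 53 lowered, and on the arms 2 of 159 were raised and 117 lowered. With a median of over 10 copies per word, 1342 of 1548 pericentromeric regions were raised and 8 lowered, but on the arms 20 of 306 were raised and 16 lowered. On the deposited scale multicopy regions of the arms were mostly not called, but after median scaling 283 of the 306 were lowered, and after quantile normalization 213. Single-copy regions had the highest share of lowered calls in both places, 37.3% and 73.6%. The pericentromeric single-copy median was 0.15 and turned to -0.28 after median scaling and -0.09 after quantile normalization.

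Between 1 and 3 Mb from the centromere, regions of higher G+C content were more often raised than regions of lower G+C content. Around the centromeres, 24 of 363 regions in the lowest of 4 classes of G+C content (at or below 28.6%) were raised and 101 lowered, with a median change of -0.24. In the next classes (up to 34.4%, up to 38.2% and above) 448 of 733 (median 0.74), 862 of 966 (0.96) and 824 of 924 (1.04) were raised. On the arms 1 of 692, 2 of 326, 8 of 117 and 29 of 92 were raised in the same order. Between 1 and 2 Mb from the centromere 337 of 433 regions above the median G+C content of 34.4% were raised, against 35 of 262 at or below it. Between 2 and 3 Mb the numbers were 133 of 195 and 45 of 348. Within 0.5 Mb regions of both kinds were mostly raised, 863 of 879 and 377 of 411. G+C content, copy number and distance move together in these regions, and their separate parts in the change were not tested.

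**Figure D4:**
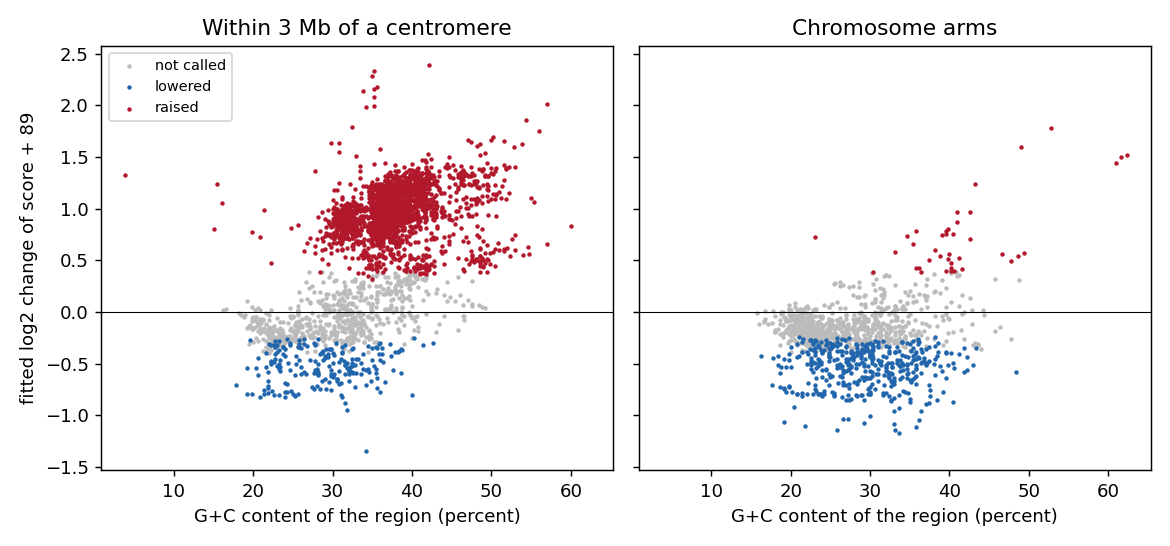
Fitted log2 change of score + 89 (vertical axis) against the G+C content of each region in percent (horizontal axis), for regions within 3 Mb of a centromere (left) and on the arms (right), coloured by call. Around the centromeres, regions at or below 28.6% G+C mostly lie under 0 and those above 34.4% mostly between 0.75 and 1.25, while most arm regions lie between -0.5 and 0.

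Annotated pseudogenes, many of which are remnants of transposons, had a share of raised windows around the centromeres of 79.6%, near the 72.3% over all pericentromeric regions. There, 450 of 565 windows on pseudogenes rose and 12 fell, with a median of 0.94. Of 2136 intergenic windows 1589 rose and 121 fell, with a median of 0.86, and of 158 windows in gene bodies 97 rose and 29 fell, with a median of 0.81. Regions within 1 kb upstream of protein-coding genes differed, with 22 of 127 raised, 48 lowered and a median of -0.25. On the arms the same class had 3 of 381 raised and 135 lowered, with a median of -0.25. Gene bodies on the arms had 9 of 183 raised and 87 lowered (median -0.31), intergenic regions 8 of 581 and 174 (-0.22), and pseudogenes 20 of 82 and 19 (-0.14). After median scaling the arm counts were 7 raised and 167 lowered in gene bodies, 0 and 570 in intergenic sequence, and 5 and 60 in pseudogenes. The median of upstream regions was thus the same near centromeres and on the arms.

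The most lowered regions lay at genes or between them. Region chr3:10654001-10654500, which overlaps an untranslated exon of AT3G28420, annotated as a putative membrane lipoprotein, scored 324 and 196 in wild type and 38 and 55 in epcr1/2, with a change of -1.34 ± 0.13 (SE, adjusted p = 1.4e-22). It lies 2.93 Mb from the centromere position. Region chr3:2251501-2252000, at an untranslated exon of the ribosomal protein L13 family gene AT3G07110, scored 684 and 423 in wild type and 167 and 216 in epcr1/2, with a change of -1.17 ± 0.18 (SE, adjusted p = 7.2e-10). Region chr1:9755001-9755500, from which the most lowered stretch above was taken, scored 475 and 230 in wild type and 94 and 113 in epcr1/2, with a change of -1.14 ± 0.17 (SE, adjusted p = 2.8e-10). In all 3 regions both epcr1/2 libraries were below both wild-type libraries.

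Some lowered regions lay at genes of known function. Region chr4:9503001-9503500 covers a coding exon of SNC1, an immune receptor gene of a clustered family, and scored 182 and 114 in wild type and 35 and 43 in epcr1/2 (change -0.87, adjusted p = 1.2e-13). Near-identical copies in that cluster could share its reads. Regions chr5:20625001-20625500 and chr5:20592001-20592500, at the 2 annotated copies of the hydroxysteroid dehydrogenase gene HSD1, both had a change of -1.11. The first scored 319 and 176 in wild type and 63 and 63 in epcr1/2. The words of both regions have a median of 2 copies, so reads of the copies cannot be told apart. Region chr3:9595501-9596000, at an untranslated exon of the cytochrome P450 gene CYP71B3, scored 331 and 246 in wild type and 127 and 105 in epcr1/2 (change -0.87). In these regions the genotypes did not overlap.

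**Figure D5:**
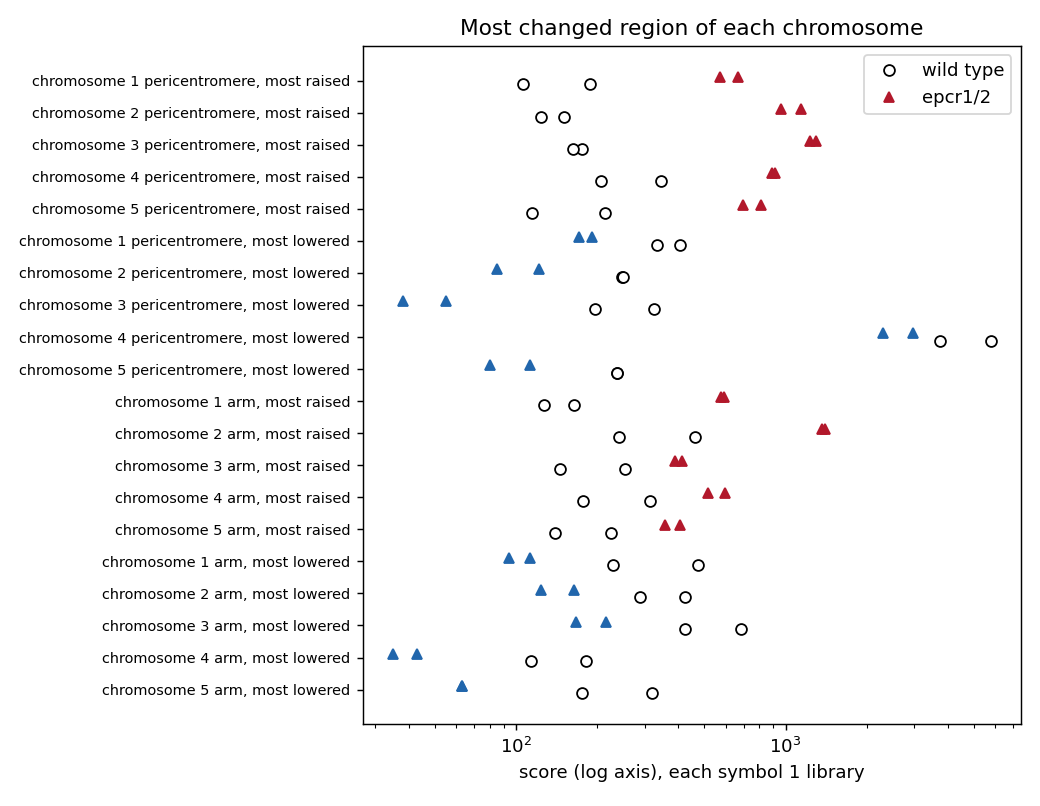
Scores in the 4 libraries (log axis) for the most raised and the most lowered region of each chromosome around the centromere and on the arms; open circles are the 2 wild-type libraries and triangles the 2 epcr1/2 libraries, red where raised and blue where lowered. In each of the 20 regions both triangles lie on the same side of both circles.

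On each chromosome the region with the highest mean wild-type score was lowered. The choice used the wild-type scores, which are also the reference of the change, so it favours a fall. These 5 regions are not separate results: every pair of them shares between 9.03% and 52.7% of 24-base words, so the same reads can count in several. The highest of all, chr3:7922001-7922500, lies 2294 bp from TIC, a circadian clock gene, and scored 11904 and 7428 in wild type and 4665 and 5955 in epcr1/2, with a change of -0.82 ± 0.35 (SE, adjusted p = 0.031). The ratio was 0.392 in repeat 1 and 0.802 in repeat 2. The highest regions of chromosomes 1, 2, 4 and 5 had changes from -0.82 to -0.80. On chromosome 5 this was chr5:12091501-12092000, 0.367 Mb from the centromere position, with 5736 and 3668 in wild type and 2255 and 2910 in epcr1/2 (adjusted p = 0.0099). None of these 5 calls held without replicate 1 of wild type or without replicate 1 of epcr1/2, where the changes lay between -0.57 and -0.50. High wild-type score did not go with loss throughout: region chr3:10008501-10009000, a single-copy window of 23.0% G+C, scored 3654 and 2752 in wild type and 4945 and 5737 in epcr1/2 (change 0.73, adjusted p = 0.027), and was picked out after its values were seen.

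Within 1 Mb of a centromere 22 regions were lowered, against 1240 raised within 0.5 Mb and 368 at 0.5 to 1 Mb. On chromosome 2, chr2:3598001-3598500, 0.00968 Mb from the centromere position, scored 99 and 101 in wild type and 58 and 57 in epcr1/2 (change -0.37, adjusted p = 0.00053). On chromosome 3, chr3:14127001-14127500 scored 275 and 283 in wild type and 105 and 141 in epcr1/2 (change -0.80, adjusted p = 5.8e-07). One of the 22, chr4:3655501-3656000 in the pseudogene AT4G06597, scored 185 and 101 in wild type but 183 and 0 in epcr1/2, so its call rests on repeat 2. The regions of this paragraph were picked out after their values were seen, and 16 called regions in all had repeats that moved in opposite directions.

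The 40 raised arm regions (3.26% of 1227) included 20 in pseudogenes and 9 in gene bodies. The members of 1 dispersed family at AT3G50490, AT4G20180, AT4G13455, AT4G12426, AT4G17005, AT4G17820, AT3G47165 and AT1G12935 rose by 0.50 to 0.97. Region chr4:10904001-10904500 in AT4G20180 scored 314 and 178 in wild type and 516 and 596 in epcr1/2 (change 0.97, adjusted p = 2.4e-06). On chromosome 1, 3 regions of 1 family, with 61.0 to 62.4% G+C, in AT1G24851, AT1G25025 and AT1G25180 rose by 1.44 to 1.52, and at AT1G25025 the scores were 165 and 127 in wild type and 575 and 589 in epcr1/2. Region chr2:6974501-6975000 in AT2G16030, annotated as a methyltransferase, scored 335 and 230 in wild type and 612 and 647 in epcr1/2 (change 0.97, adjusted p = 8.2e-07). After median scaling 12 of the 40 were raised and 0 lowered, so most of these calls rested on the scale.

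Few genes of known silencing pathways held a region. Of 9 loci known as targets of RNA-directed DNA methylation, 1 had a region within 1 kb, at MEA, an imprinted Polycomb gene. That region, chr1:550001-550500, scored 129 and 114 in wild type and 49 and 83 in epcr1/2 (change -0.45, adjusted p = 7.6e-05). A second list held 11 genes, EPCR1, EPCR2, ARID2, ARID3, ARID4, TRB1, TRB2, HAM1, HAM2, UBP5 and HDA6, and no PWWP-domain gene. Of these 11, 1 had regions within 1 kb, ARID3 (AT1G20910). The nearer region there scored 214 and 119 in wild type and 103 and 116 in epcr1/2 (change -0.34, adjusted p = 0.0082), and the farther one 161 and 111 against 104 and 119 (change -0.16, adjusted p = 0.25). The first call was lost without replicate 1 of either genotype.

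Few regions lay at non-coding RNA genes. Of 29 regions at long non-coding RNA genes 22 were lowered and 2 raised, with a median of -0.43, and of 20 within 1 kb of a tRNA gene 11 were lowered and 0 raised, with a median of -0.33. The lowered share was 14.8% over all regions and 33.8% on the arms, and after median scaling, when 46.5% of all regions were lowered, 25 of the 29 and all 20 were. Of 19 regions at annotated miRNA genes, 4 were raised and 4 lowered, or 21.1% each, against 52.2% and 14.8% over all regions. The raised ones included MIR854b, which lies in the raised pseudogene region on chromosome 5, and MIR5643a, whose region scored 172 and 202 in wild type and 478 and 563 in epcr1/2 (change 1.14, adjusted p = 1.1e-08). The regions at MIR8167a, MIR8167c, MIR8167d, MIR8167e and MIR8167f had changes from -0.16 to -0.12 and were not called. Of the regions at MIR8167b 1 was lowered, with overlapping genotypes (-0.34, adjusted p = 0.023), and 1 was not called (0.04). These windows hold all small RNAs of a region and not the mature miRNA. Within 1 kb of TAS1B, a source of trans-acting siRNAs, the region lay in an intron of AT1G50050 and not on TAS1B itself. It scored 775 and 626 in wild type and 524 and 562 in epcr1/2 (change -0.32, adjusted p = 0.15).

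Set beside the other genotypes, the median pericentromeric change of 0.86 in epcr1/2 stood against 0.57 in arid2/3/4, 0.17 in nrpe1 and -0.20 in hda6, and the arm median of -0.25 against -0.33, -1.23 and -0.47. The pericentromeric share of the summed score was 84.7% and 85.2% in arid2/3/4, 91.6% and 92.3% in nrpe1 and 76.1% and 76.0% in hda6. All genotypes were set against the same wild-type libraries, and the differences between mutants were not tested. In the nrpd1 libraries, which lack the largest subunit of RNA polymerase IV, the same regions summed to 16689 and 3473.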

How the data were processed

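Small RNA libraries of 6 genotypes were analysed, 2 repeats each. Per the labels' protocols, RNA came from 1 g of seedlings. Reads were aligned with Bowtie 0.12.2 to TAIR10, per the submitters' processing notes. The authors deposited 1 table per repeat with a whole-number score per 500 bp region; read sizes, the treatment of reads with several positions, scaling and the choice of regions are not stated in the labels or tables, so precision from depth is unknown. Scores were treated as normalized values, not as counts. limma 3.58.1 in R 4.3.3 was run on log2(score + 89) over the 12 libraries with the repeat as a block, a variance trend and 5 residual degrees of freedom, with Benjamini-Hochberg adjustment over 4213 regions. The prior degrees of freedom were infinite, so each SE and p came from the trend and not from a region's own spread. The labels do not say whether repeats are separate cultures, so p-values may measure technical spread only. Same-numbered wild-type and epcr1/2 libraries deviated together with a correlation of 0.15. Named regions were, by chromosome and by pericentromere or arm, the 2 called regions with the largest change each way that moved alike in both repeats and lay over 10 kb apart, the region of highest wild-type score per chromosome, and regions within 1 kb of listed genes. Members and lists were chosen with earlier results of these data known. Genes and sequences came from the RefSeq copy of the assembly, with the same chromosome lengths. The fit was tested on simulated data. Alternatives were other scalings, pseudocounts, filters, distances, no block and leaving out each library. Summaries used Python 3.11.15 and pandas 2.3.3.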

Additional observations from a re-analysis of the deposited data

Results flagged for a closer look

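Regions listed in only 1 of the tables were outside the comparison, and those around the centromeres also had higher scores in epcr1/2. In the 1174 such regions of the repeat 1 table, the median log2 ratio of score + 89 in epcr1/2 to wild type was 0.54, and 81.4% were higher in epcr1/2. In the 181 such regions of the repeat 2 table the median was 0.19, and 62.4% were higher. The arm regions of the same tables had medians of -0.41 (456 regions) and -0.19 (101 regions). Each of these values comes from 1 library per genotype, so no test was made.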

How the results depend on the processing

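The repeats were kept as a block because each table holds 1 repeat; the labels do not pair the samples. With no replicate block 2195 regions were raised and 611 lowered. With a minimum change of 2-fold, 12 regions were raised and 0 lowered, so 0 were lowered around the centromeres and 0 were raised or lowered on the arms. After median scaling 1960 regions were lowered, 788 around the centromeres (median 0.27) and 1172 on the arms (median -0.74), where 12 were raised, and the pericentromere minus arm difference on chromosome 4 was 1.14. After quantile normalization 1428 were lowered, 554 around the centromeres (median 0.36) and 874 on the arms (median -0.63), and the chromosome 4 difference was 1.06. With a pseudocount 10 times smaller the pericentromeric median was 1.11, and the differences on chromosomes 1 to 5 were 1.45, 0.92, 1.16, 1.57 and 1.47. Without regions below the 25th percentile of mean score 178 regions were lowered, 58 around the centromeres and 120 on the arms, and the differences on chromosomes 2, 3 and 4 were 0.97, 1.06 and 1.29. With only wild type and epcr1/2 in the fit 394 were lowered, 128 around the centromeres and 266 on the arms, where 25 were raised. With a limit of 2 Mb 106 were lowered around the centromeres and 218 raised on the arms, with differences of 0.99, 1.04 and 1.16 on chromosomes 2, 3 and 4. With 5 Mb these were 343, 16, 0.54, 0.60 and 1.18. Leaving out 1 library at a time gave 1999 to 2238 raised and 378 to 786 lowered regions, 1977 to 2191 raised and 130 to 262 lowered around the centromeres (median 0.77 to 0.94), and 22 to 59 raised and 248 to 524 lowered on the arms (median -0.36 to -0.13). The chromosome differences then ran from 1.04 to 1.23, 0.62 to 0.78, 0.80 to 0.96, 1.21 to 1.25 and 1.07 to 1.23, and the difference in the log2 ratio of sums from 1.24 to 1.44. Of 536 alternatives for 46 named regions, 461 kept direction and call, 72 lost the call, 2 gained it, and 1 changed sign: the farther ARID3 region (chr1:7282001-7282500) had 0.05 without replicate 1 and -0.37 without replicate 2 of wild type. The cause was not tested.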
